A study of Mus musculus with 12 samples.

Results

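The fasting response of pericentral hepatocytes was measured as the change in messenger RNA between hepatocytes of fed mice and hepatocytes of fasted mice, taken from beside the central vein of the liver lobule. It was read from 6 of the 12 RNA-seq libraries of the series, 3 fed and 3 fasted, and for every expressed gene: 12086 of the 28030 genes in the deposited table had enough counts to be tested. All mice were wild-type (WT) females, 12 weeks old, on normal chow, and were trained for 3 days to eat during 8 h of daytime and go without food for 16 h overnight. On the day of the experiment both groups had food and 20% sucrose in the drinking water. Fed mice were killed 4 h into that meal. Fasted mice lost the food and the sucrose together at that clock time and were killed 24 h later, so the removal of chow and of sucrose cannot be told apart, and both groups were sampled at the same time of day. Zones were parted with digitonin, a detergent that lyses the cells it reaches first and leaves the opposite zone to be harvested. Libraries of a group are described as biological replicates; whether each is 1 mouse or a pool is not stated.

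Hepatocytes share their work along the axis from the portal vein to the central vein. Pericentral cells receive blood that is poorer in oxygen, make glutamine with glutamine synthetase, carry most cytochrome P450 drug metabolism, and are known for glycolysis and fat synthesis. Periportal cells are known for gluconeogenesis, urea synthesis and fatty acid oxidation. Feeding raises insulin, which drives sugar and fat synthesis through the transcription factors SREBP-1c and ChREBP and keeps FoxO1 out of the nucleus. Fasting raises glucagon, glucocorticoids and fatty acids, which act through CREB, the glucocorticoid receptor and PPARalpha on gluconeogenesis, fat oxidation and ketone production.

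The libraries were checked against their zone labels first, and 1 library stood apart. Of 29 tested pericentral markers, 21 were higher in all 6 pericentral libraries than in all 6 periportal libraries, and 19 of 25 periportal markers were lower in all 6. In fasted pericentral replicate 1, 26 of the 29 pericentral markers lay below both other fasted pericentral libraries, with a median difference of -1.12 on the log2 scale, and 20 of the 25 periportal markers lay above both, with a median of 1.01. Glul, glutamine synthetase, stood at 172.0 counts scaled to library size (CPM) in that library against 3639 and 2353 CPM in the other fasted pericentral libraries, and at 1372, 1960 and 2171 CPM in the fed ones. Hal, a histidine-degrading enzyme of the periportal zone, stood at 578.9 CPM there against 69.9 and 108.6 CPM. Leaving this library out gave 25 and 20 markers with no overlap between the zones. The counts and medians given below for gene lists are repeated without it where they moved by over 1.5 times or changed sign. The fit of all genes was also repeated without it, and values from that fit are given below for some genes. The cause of its marker levels was not tested. In bulk RNA, fewer cells of a kind and less RNA per cell cannot be told apart. Markers of other liver cells were low in the pericentral libraries, with sums of 10.6 to 21.1 CPM for endothelial genes, 1.08 to 9.63 for Kupffer cell and macrophage genes, 4.93 to 22.9 for stellate and fibroblast genes, 17.9 to 32.1 for cholangiocyte genes and 1.08 to 6.76 for lymphocyte and neutrophil genes. Red blood cell genes summed to 440.9 CPM in fasted replicate 2 and to between 5.25 and 47.6 CPM in the other 5.

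**Figure D1:**
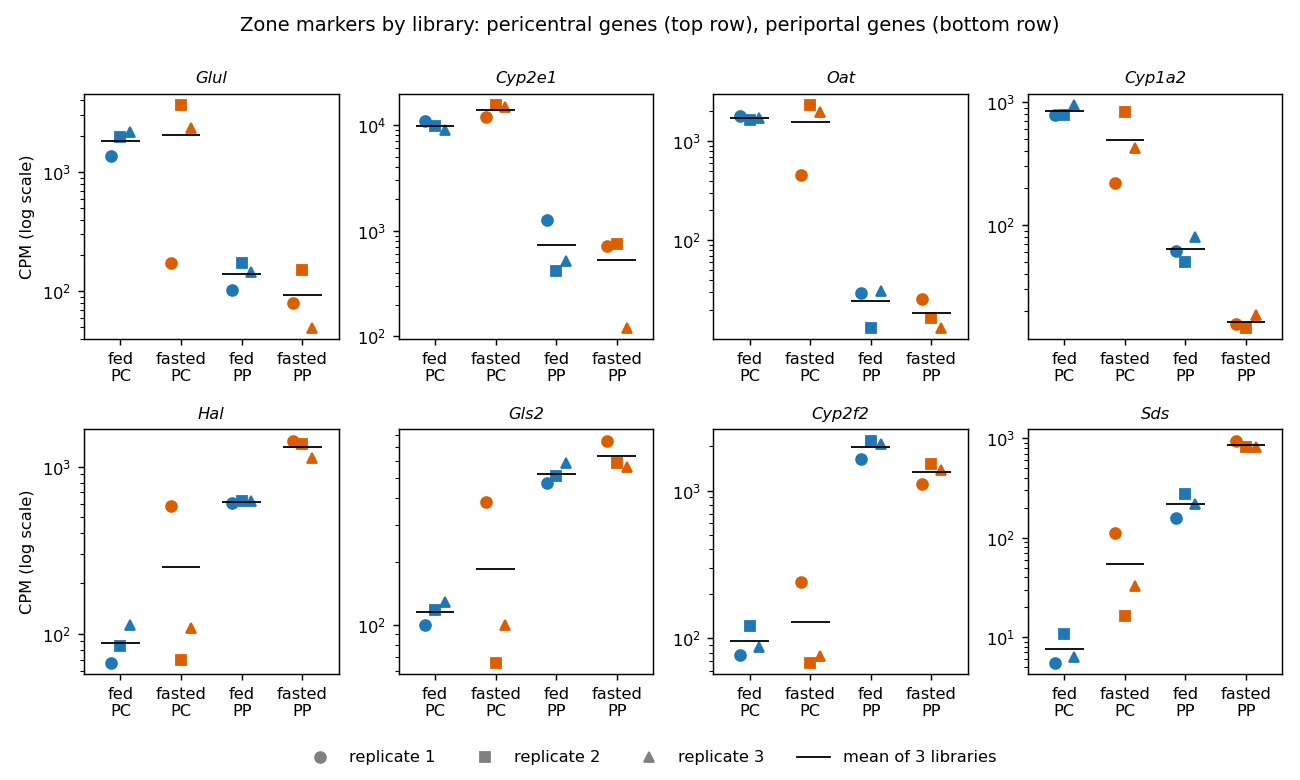
CPM of 4 pericentral genes (top row) and 4 periportal genes (bottom row) in all 12 libraries on a log axis, with fed libraries in blue, fasted in orange, PC for pericentral, PP for periportal, symbols for replicate numbers and bars for the mean of 3 libraries. Fasted PC replicate 1 (circle) lies below the other fasted PC libraries for Glul, Oat, Cyp2e1 and Cyp1a2, and above them for Hal, Gls2, Cyp2f2 and Sds, with Glul at 172.0 CPM.

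Fasting changed 2582 of the 12086 tested genes in pericentral hepatocytes (21.4%; edgeR quasi-likelihood test, Benjamini-Hochberg adjusted p under 0.05, the rule for every call below). Of these, 1345 genes were higher in fasted cells (11.1% of those tested) and 1237 were lower (10.2%). These 2 shares are the background for every gene list below. The median change was 0.69 on the log2 scale among the genes that rose and -0.81 among those that fell, with median standard errors (SE) of 0.153 and 0.174, against a median of 0.0042 over all tested genes. More of the falling genes moved far: 466 of them (37.7%) changed by more than 2-fold, against 372 (27.7%) of the rising genes, and 128 against 80 by more than 4-fold. The falling genes were also expressed lower, with a median of 17.5 CPM against 25.9 CPM. Of the falling genes, 20 stood at 0 in all 3 fasted libraries, and 2 of the rising genes at 0 in all 3 fed ones. Whether expression level accounts for the larger falls was not tested. The 3 fed and 3 fasted libraries did not overlap for 1321 of the rising and 1231 of the falling genes, and for 41.7% of all tested genes. The first principal component of the 6 libraries held 47.4% of the variance and separated fed (-45.2 to -29.1) from fasted (34.0 to 42.8), while the second held 20.7% and set fasted replicate 1 (50.9) apart from the other 5 (-25.8 to 3.39). Along the first component, fed replicate 1 (-29.1) lay nearest to the fasted side. Counts of calls depended on single libraries: without fed replicate 3 there were 1593 calls (788 higher, 805 lower), without fed replicate 2 there were 1664 (800 higher), and without fasted replicate 1 there were 2486 (9.55% of 12396 tested genes higher and 10.5% lower). In the fit of the 6 pericentral libraries alone, 11.9% of 11274 genes were higher and 12% lower.

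**Figure D2:**
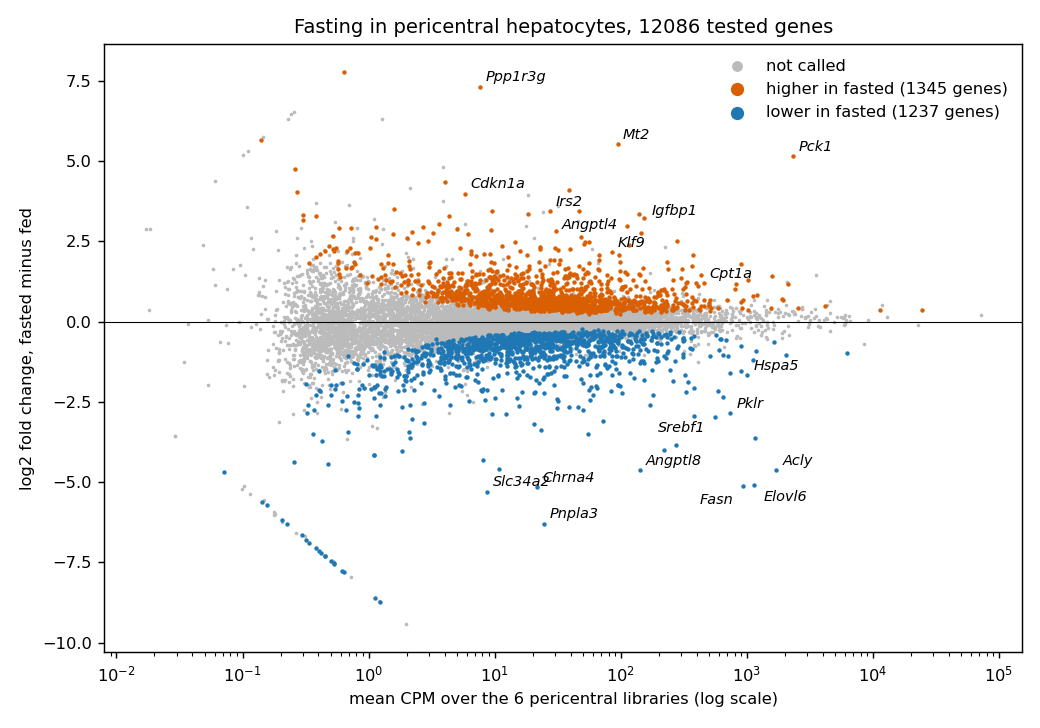
Each point is 1 of the 12086 tested genes, with its mean CPM over the 6 pericentral libraries on a log axis and its fitted log2 change from fed to fasted; orange marks the 1345 genes called higher and blue the 1237 called lower. The slanting line of blue points at the lower left holds genes with 0 counts in all 3 fasted libraries, whose fitted value is not a bound; 20 such genes were called, none above a mean of 1.22 CPM.

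Fatty acid synthesis showed the lowest median of the lists. Of 20 tested genes, 13 fell (65%) and 0 rose, with a median change of -2.11. Without fasted replicate 1, 10 fell. Fasn, fatty acid synthase, stood at 1505, 1812 and 2132 CPM in the fed libraries and at 43.0, 49.0 and 64.4 CPM in the fasted ones, a log2 change of -5.12 ± 0.51 (SE; edgeR adjusted p = 0.00018). Acly, which makes cytosolic acetyl-CoA from citrate, went from 1856, 3119 and 4761 CPM to 151.4, 113.7 and 129.9 CPM (-4.62 ± 0.55, edgeR adjusted p = 0.00041). The groups lay far apart for both genes, and the fed libraries spread more for Acly, with fed replicate 1 the lowest. Elovl6, a fatty acid elongase, fell from 1640, 2151 and 2890 CPM to 40.6, 79.9 and 75.6 CPM (-5.09 ± 0.59). The regulators fell too. Srebf1, which encodes SREBP-1, changed by -2.98 ± 0.35, Thrsp by -3.64 ± 0.57 and Mid1ip1, an activator of acetyl-CoA carboxylase, by -4.01 ± 0.38. Acaca, the carboxylase that makes malonyl-CoA, fell by 2.92 on the log2 scale. Scd1, the desaturase that makes oleate, did not pass: it stood at 9305, 8665 and 13640 CPM in fed and at 1692, 8903 and 8928 CPM in fasted libraries, with fasted replicate 1 far below the others (-0.70 ± 0.77, edgeR adjusted p = 0.56). On GRCm38 (mm10), Fasn spans chromosome 11 from 120805846 to 120824547 and Acly chromosome 11 from 100476353 to 100528000.

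Some genes of sugar breakdown fell beside those of fat synthesis. Of 23 genes of glycolysis and fructolysis, 9 fell (39.1%) and 1 rose, with a median of -0.41. Pklr, liver pyruvate kinase, which makes pyruvate at the end of glycolysis, went from 982, 1273 and 1610 CPM to 129.9, 195.5 and 208.9 CPM (-2.85 ± 0.32). Tkfc, which phosphorylates the glyceraldehyde made from fructose, went from 835.6, 1119 and 1280 CPM to 157.0, 242.2 and 229.0 CPM (-2.36 ± 0.21, edgeR adjusted p = 2.9e-05). For both enzymes, every fasted library lay below every fed one. The gene that rose was Pdk2, a kinase that switches off pyruvate dehydrogenase (0.61 ± 0.13). Pdk4, an isoform known for its rise in fasting, was not called: it stood at 13.4, 20.4 and 27.5 CPM in fed and 22.1, 110.6 and 162.8 CPM in fasted libraries (2.27 ± 0.72, edgeR adjusted p = 0.052). Without fasted replicate 1, the lowest of the fasted libraries for Pdk4, the change was 2.73 with an edgeR adjusted p of 0.011, DESeq2 also called it (0.011), and 2 members of the list were higher and 6 lower; 2 were also higher without fasted periportal replicate 1.

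The pentose phosphate pathway and the other cytosolic sources of NADPH, the reducing power for fat synthesis, had 4 of 10 genes lower (40%) and 1 higher, with a median of -0.53. Rpia, ribose 5-phosphate isomerase, stood at 19.0, 19.8 and 26.2 CPM in fed and 2.83, 2.17 and 3.82 CPM in fasted libraries (-2.87 ± 0.35). Me1, malic enzyme, changed by -2.15 ± 0.44 and Pgd, 6-phosphogluconate dehydrogenase, by -2.16 ± 0.44. H6pd, which makes NADPH inside the endoplasmic reticulum and not in the cytosol, was the one that rose (0.65 ± 0.14). Glycogen genes were mixed, with 3 of 15 higher, 4 lower and a median of -0.18. Pygl, liver glycogen phosphorylase, fell from 589.5, 693.0 and 802.9 CPM to 265.0, 380.4 and 342.3 CPM (-1.08 ± 0.19). Ppp1r3c, a subunit that targets protein phosphatase 1 to glycogen, changed by -2.06 ± 0.45, a call that ended in the pericentral libraries alone without fasted replicate 1 (-1.92, edgeR adjusted p = 0.0504). Its relative Ppp1r3g had the highest change of all named genes: 0, 0.244 and 0 CPM in fed and 8.81, 33.04 and 3.99 CPM in fasted libraries (7.32 ± 2.09, edgeR adjusted p = 0.033). That call rests on few fed counts and on single libraries, and ended without fed replicate 1 (6.71, edgeR adjusted p = 0.11), fed replicate 2 (11.3, 0.12), fed replicate 3 (6.89, 0.11) or fasted replicate 2 (6.08, 0.092), and at 0.051 and 0.052 without fed periportal replicate 1 or 2. It also ended without the filter on low counts (0.079) and with the replicate block (0.078). The 3 glycogen genes that rose became 0 without fed replicate 2 or 3 or fasted replicate 2, and 1 without fasted replicate 3 or fed periportal replicate 1 or 2.

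Cholesterol synthesis and uptake followed, with 13 of 26 genes lower (50%), 0 higher and a median of -0.91. Insig1, which holds the SREBP precursors in the endoplasmic reticulum and is itself an SREBP target, stood at 1369, 1347 and 1270 CPM in fed and at 506.3, 416.2 and 440.4 CPM in fasted libraries (-1.55 ± 0.18, edgeR adjusted p = 0.00019). The spread within each group was small beside the difference. Enzymes from the early to the late pathway fell: Mvd by 2.43, Fdps by 1.65, Lss by 1.602 and Sc5d by 1.61 on the log2 scale. Hmgcs1 and Srebf2 were among the 13 members that did not pass. Triglyceride genes had no common direction (3 higher, 3 lower of 21, median 0.11). Pnpla2, adipose triglyceride lipase, rose from 34.9, 31.3 and 30.0 CPM to 90.2, 108.9 and 102.7 CPM (1.65 ± 0.11, edgeR adjusted p = 5.0e-06), and Lpin2, a phosphatidate phosphatase, rose by 1.73 ± 0.31. Its relative Pnpla3 went the other way, from 26.3, 30.7 and 89.5 CPM to 0.103, 0.903 and 0.887 CPM (-6.29 ± 1.05; -5.52 without fed replicate 3, the highest of the fed libraries for it). The 3 triglyceride genes that rose became 5 without fasted replicate 1, and the 3 that fell became 5 without fasted replicate 3 and 1 without fed replicate 3.

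**Figure D3:**
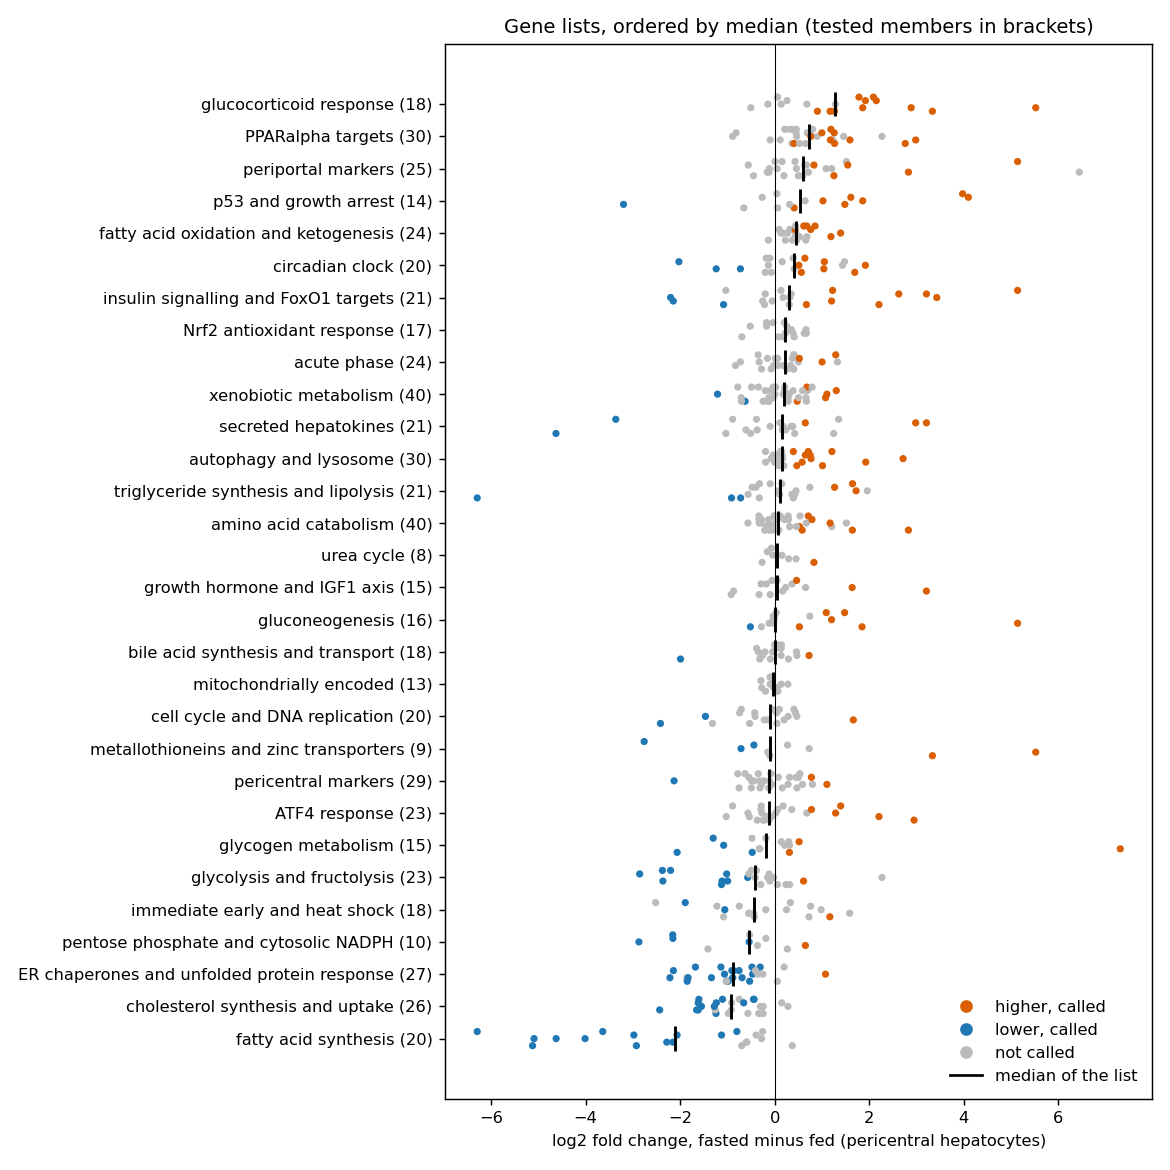
Fitted log2 changes from fed to fasted in pericentral hepatocytes for the tested members of 30 gene lists, ordered by their median (black bar), with called genes in orange (higher) or blue (lower) and others in grey. Fatty acid synthesis (median -2.11), cholesterol synthesis and the endoplasmic reticulum chaperones lie lowest, and the glucocorticoid response lies highest (median 1.28).

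The chaperones and folding enzymes of the endoplasmic reticulum (ER) fell as a block. Secreted proteins fold in the ER, and when unfolded chains build up, the sensors IRE1 and ATF6 raise the same chaperones. Of 27 genes on the list, 19 fell (70.4%) and 1 rose, with a median of -0.89. Hspa5, the ER chaperone BiP, stood at 1851, 1537 and 1177 CPM in fed and at 486.5, 464.1 and 479.3 CPM in fasted libraries (-1.68 ± 0.27, edgeR adjusted p = 0.0015). The fasted libraries were close together and the fed ones spread, with fed replicate 3 the lowest. Calr, the lectin chaperone calreticulin, went from 868.9, 770.3 and 709.5 CPM to 434.5, 400.2 and 436.9 CPM (-0.89 ± 0.13), and Pdia6, a disulfide isomerase, from 358.3, 315.1 and 248.5 CPM to 159.7, 159.4 and 147.9 CPM (-0.98 ± 0.14). Creld2 fell by 2.14, Hyou1 by 1.85 and Manf by 1.83 on the log2 scale, and Derl2, of the machinery that exports misfolded chains, by 1.02. Ern1, the gene of the sensor IRE1, fell by 1.34. The member that rose was Herpud1, which also serves the export of misfolded chains, from 268.8, 193.6 and 160.5 CPM to 441.1, 426.8 and 446.1 CPM (1.08 ± 0.20). Without fasted replicate 1, 15 members fell and 1 rose.

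ATF6 and XBP1 are known to act through the ER stress element, read here as CCAAT and CCACG with 9 bases of any kind between them, on either strand. In RefSeq promoter windows of GRCm38.p6, from 250 bases before to 50 bases after a gene's start, the element lay in 9 of the 23 list genes with a window (39.1%), in 0.171% of the 9359 tested genes with a window and in 0.119% of all 32851 windows. Of the 16 tested genes that held it, 10 fell, 0 rose and 6 were not called. Of the 9 list members that held it, 7 fell, beside 19 of all 27 members. These 7 are among the 10, so the counts are not separate support. The list names chaperones that ATF6 is known to raise, so its high share of the element came with the choice of genes. A match is a description of the letters and not a site or a cause. The elements of the 9 list genes are shown as a record of their letters. Only 7 of the 19 list members that fell held one, and the others lacked it or had no window. They are written 5′ to 3′ on the strand that reads CCAAT first, with the fixed letters in capitals.
Calr: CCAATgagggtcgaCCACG
Pdia6: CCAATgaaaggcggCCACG
Hspa5: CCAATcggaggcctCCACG
Creld2: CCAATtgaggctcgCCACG
Canx: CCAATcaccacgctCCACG
Hsp90b1, far: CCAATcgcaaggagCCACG
Hsp90b1, near: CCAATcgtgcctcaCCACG
Dnajc3: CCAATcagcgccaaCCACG
Syvn1: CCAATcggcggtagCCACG
Derl3: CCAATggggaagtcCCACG

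The Hspa5 element lies at chr2:34772025-34772043, 65 bases before the RefSeq start and inside the gene span of GENCODE, which begins further upstream, at 34771970, and that of Calr at chr8:84847075-84847093, on the strand opposite to the gene. Hsp90b1, the ER member of the HSP90 family, holds 2 copies, on opposite strands. Canx, the membrane-bound lectin chaperone, fell by 0.46 and Dnajc3, a co-chaperone of BiP, by 0.48 on the log2 scale. The call of Hsp90b1 (-0.75) ended without fasted replicate 2 (edgeR adjusted p = 0.074) and that of Dnajc3 without fed replicate 1 (0.11), where the adjusted p of each was highest. Syvn1 (-1.02, edgeR adjusted p = 0.083) and Derl3 (-1.86, edgeR adjusted p = 0.22) did not pass. The Creld2 element also lies in the window of Alg12, a mannosyltransferase gene that starts beside Creld2 on the other strand and fell by 1.46 on the log2 scale. The 250 bases before the start of Pdia6, at chr12:17266339-17266588 on the plus strand, show the element in place, in capitals.
Pdia6 upstream: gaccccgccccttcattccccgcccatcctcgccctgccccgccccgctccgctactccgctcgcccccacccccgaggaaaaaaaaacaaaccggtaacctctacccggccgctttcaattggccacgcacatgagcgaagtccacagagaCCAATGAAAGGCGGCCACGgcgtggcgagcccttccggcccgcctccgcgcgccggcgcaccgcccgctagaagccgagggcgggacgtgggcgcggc

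Chaperones of the cytosol were on the list of immediate early and heat shock genes, of which 2 of 18 fell and 1 rose (median -0.43, and -0.098 without fasted replicate 1). Hspa8, the constitutive HSP70, stood at 2935, 2633 and 2703 CPM in fed and 1295, 1216 and 1471 CPM in fasted libraries (-1.05 ± 0.13, edgeR adjusted p = 0.00024). Hsp90aa1, a cytosolic HSP90, fell from 579.2, 551.0 and 498.1 CPM to 119.2, 116.3 and 203.6 CPM (-1.89 ± 0.26). Klf6, a zinc finger factor, rose by 1.17 ± 0.26. The count of members that rose was 3 without fasted replicate 3 and 2 without fed replicate 1 or 3. The ATF4 response, the other arm that ER stress and amino acid shortage share, had 5 of 23 genes higher and 0 lower, with a median of -0.12 that was 0.031 without fasted replicate 1. Sesn2, an inhibitor of the growth kinase mTORC1, rose from 5.51, 4.73 and 4.56 CPM to 10.5, 12.0 and 13.8 CPM (1.29 ± 0.17). Trib3, a pseudokinase, changed by 2.21 ± 0.45 and Chac1, which degrades glutathione, by 2.95 ± 0.61, from levels under 2.5 CPM in every fed library. Asns, asparagine synthetase and a standard ATF4 target, was near 1 CPM in all 6 libraries and did not pass (-0.15 ± 0.37, edgeR adjusted p = 0.80).

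Among genes that rose, gluconeogenesis was led by its entry enzyme. Of 16 genes, 6 rose (37.5%) and 1 fell, with a median of 0.02 that was 0.27 without fasted replicate 1. Pck1, which makes phosphoenolpyruvate from oxaloacetate, stood at 258.1, 80.5 and 45.1 CPM in fed and at 4382, 4672 and 4516 CPM in fasted libraries (5.14 ± 0.73, edgeR adjusted p = 0.0012). The fasted libraries agreed closely, replicate 1 included. Pck1 is also a periportal marker, at 8245, 6426 and 10350 CPM in the fasted periportal libraries. Fed replicate 1 was the highest of the fed pericentral libraries, and without it the change was 6.17. G6pc, glucose 6-phosphatase, the last step of glucose release, went from 215.0, 237.9 and 265.9 CPM to 414.8, 719.1 and 523.7 CPM (1.21 ± 0.25, edgeR adjusted p = 0.0059). Got1, the cytosolic aspartate aminotransferase, rose from 101.6, 102.8 and 98.02 CPM to 351.7, 389.8 and 349.8 CPM (1.85 ± 0.17, edgeR adjusted p = 3.6e-05). Gk, glycerol kinase, which brings in glycerol from fat, rose by 1.09 ± 0.20. Ppargc1a, a coactivator of these genes, changed by 1.48 ± 0.40, a call that ended without fed replicate 1 (1.44, edgeR adjusted p = 0.071), fed replicate 2 (1.42, 0.082), fed replicate 3 (1.57, 0.061) or fasted replicate 3 (1.14, 0.086), and without the filter on low counts (0.066). Slc37a4, the glucose 6-phosphate transporter, was the one lower (-0.51 ± 0.16, edgeR adjusted p = 0.034), and the count of lower members was 0 without fed replicate 2 or 3 or any 1 fasted replicate.

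Of 21 genes of insulin signalling and FoxO1 targets, 8 rose (38.1%), 3 fell and 10 were not called, Irs1, Akt1 and Akt2 among them. The median was 0.31, and 0.098 without fasted replicate 1. Irs2, the insulin receptor substrate that FoxO1 is known to raise, stood at 6.61, 4.11 and 3.04 CPM in fed and 31.9, 70.1 and 48.2 CPM in fasted libraries (3.43 ± 0.40, edgeR adjusted p = 0.00033). Insr, the receptor, rose from 103.0, 101.1 and 88.7 CPM to 160.7, 154.1 and 151.9 CPM (0.67 ± 0.11), and Foxo1 itself rose by 1.23 on the log2 scale. Igfbp1, a secreted binding protein of IGF1 that insulin represses, went from 27.6, 14.9 and 47.1 CPM to 176.6, 401.2 and 251.1 CPM (3.21 ± 0.57, edgeR adjusted p = 0.0041). Sik1, a kinase that cyclic AMP raises, changed by 2.63 ± 0.37. Against these, Pik3r1, the regulatory subunit of phosphatidylinositol 3-kinase, fell from 119.9, 136.3 and 121.9 CPM to 57.4, 54.8 and 66.6 CPM (-1.08 ± 0.13, edgeR adjusted p = 0.00022), and its relative Pik3r3 changed by -2.14 ± 0.32. The FoxO element TGTTTAC, sought on both strands, lay in the promoter windows of 5.13% of genes that rose, 2.14% of genes that fell and 3.22% of all tested genes. Of 15 genes of the growth hormone and IGF1 axis, 3 rose and 0 fell (median 0.05, and -0.079 without fasted replicate 1): Igfbp1, Socs2, a feedback inhibitor of growth hormone signalling (1.64 ± 0.23), and Stat5b (0.47 ± 0.12). The Stat5b call ended without fed replicate 1 (0.42, edgeR adjusted p = 0.064), fed replicate 3 (0.48, 0.051) or fasted replicate 2 (0.40, 0.070). One member of the axis was lower without fed replicate 1 or 2 or fed periportal replicate 1 or 3.

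**Figure D4:**
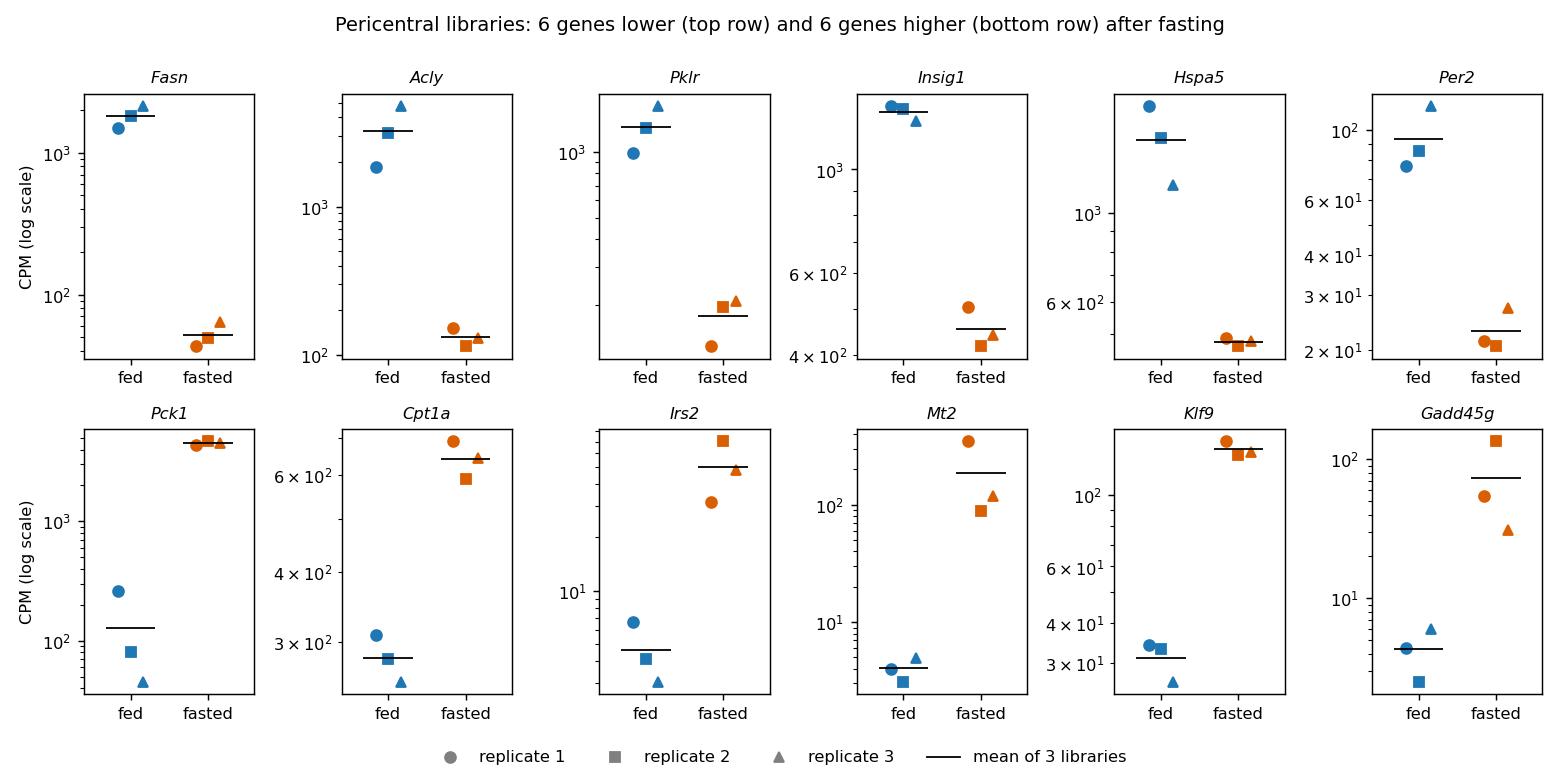
CPM in the 3 fed (blue) and 3 fasted (orange) pericentral libraries on log axes that differ between panels, for 6 genes lower after fasting (top row) and 6 higher (bottom row), with symbols for replicate numbers and a bar for the mean. The genes were picked from those called, and the groups do not overlap in any of the 12 panels. The same holds for 98.2% of genes called higher, 99.5% of those called lower and 41.7% of all tested genes. Pck1 spreads from 45.1 to 258.1 CPM in fed libraries and only from 4382 to 4672 CPM in fasted ones.

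Most fat oxidation genes had a positive change, and a minority were called higher. Of 24 genes of fatty acid oxidation and ketogenesis, 7 rose (29.2%) and 0 fell, with a median of 0.45, and 23 of the 24 had a positive change. Cpt1a, which passes fatty acids into mitochondria and is the control step of oxidation, stood at 308.6, 279.2 and 253.6 CPM in fed and at 689.8, 590.4 and 644.1 CPM in fasted libraries (1.19 ± 0.14, edgeR adjusted p = 0.00019). Eci2, an enoyl-CoA isomerase, changed by 0.86 ± 0.22 and Slc25a20, the carnitine carrier, by 0.76 ± 0.19. Both calls ended without fasted replicate 3 (edgeR adjusted p = 0.052 for Eci2 and 0.056 for Slc25a20), fed replicate 2 (0.071 and 0.075) or fed replicate 3 (0.065 and 0.058). In a fit of the 6 pericentral libraries alone, 15 members of the list were higher. The count of 7 was fragile to single libraries: it was 1 without fed replicate 2 or 3 or fasted replicate 3, 4 without fasted replicate 2 and 13 without fed periportal replicate 1.

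PPARalpha targets overlap that list and had 10 of 30 genes higher (33.3%) and 0 lower, with a median of 0.72. Angptl4, a secreted inhibitor of lipoprotein lipase, stood at 26.7, 20.7 and 28.4 CPM in fed and 129.4, 172.8 and 297.8 CPM in fasted libraries (2.99 ± 0.32, edgeR adjusted p = 0.00019). Retsat, retinol saturase, went from 626.6, 484.2 and 397.2 CPM to 1260, 968.3 and 1192 CPM (1.18 ± 0.25), and Plin5, a lipid droplet coat protein, changed by 1.27 ± 0.28. Cyp4a14, which hydroxylates fatty acids and is the textbook PPARalpha target, was already at 2879, 1636 and 1117 CPM in fed libraries and at 3959, 4998 and 6540 CPM in fasted ones (1.46 ± 0.60, edgeR adjusted p = 0.12). It was called without fed periportal replicate 1 (1.44, edgeR adjusted p = 0.012) and in the fit of the pericentral libraries alone (1.44, 0.032). Fgf21, the fasting hormone of the liver, stood at 1.35, 6.71 and 5.44 CPM in fed and at 0.258, 2.23 and 4.82 CPM in fasted libraries, and the groups overlap (-0.89 ± 0.84, edgeR adjusted p = 0.49). The 10 targets that rose became 4 without fed replicate 2 or fasted replicate 3 and 5 without fed replicate 3.

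The glucocorticoid response had the highest median of the 30 lists that are not markers of other cells, 1.28, with 11 of 18 genes higher (61.1%) and 0 lower. Klf9, a zinc finger factor, was among the most regular genes of the response: 34.2, 33.3 and 26.3 CPM in fed and 146.9, 133.7 and 136.4 CPM in fasted libraries (2.15 ± 0.14, edgeR adjusted p = 4.6e-06). Errfi1, an inhibitor of the EGF receptor, rose from 563.9, 315.5 and 344.0 CPM to 1160, 1491 and 1568 CPM (1.79 ± 0.23, edgeR adjusted p = 0.00035). Fkbp5, a co-chaperone that dampens the glucocorticoid receptor, rose by 1.27 and Sgk1, a kinase, by 2.09 on the log2 scale. Cebpd, a transcription factor, rose from 0.995, 1.11 and 1.47 CPM to 10.2, 10.1 and 6.10 CPM (2.89 ± 0.39). Dusp1, Tsc22d3 and the receptor gene Nr3c1 were among the 7 members that did not pass. In all 12 fits that left out 1 library, 10 or 11 members rose.

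Metallothioneins, small zinc-binding proteins that glucocorticoids and zinc raise, are on the glucocorticoid list and on that of zinc genes. Mt2 stood at 4.02, 3.10 and 5.00 CPM in fed and 346.4, 89.0 and 118.9 CPM in fasted libraries (5.53 ± 0.68, edgeR adjusted p = 0.00069), and Mt1 at 39.4, 13.5 and 22.7 CPM and then 440.3, 165.6 and 160.1 CPM (3.34 ± 0.57). Fasted replicate 1 was the highest library for both genes, and without it the changes were 4.68 and 2.67, both still called. The 2 genes are close paralogs, so how reads were split between them is uncertain. Of the 9 zinc genes, 2 rose and 3 fell (median -0.10): Slc30a10, an exporter of manganese, fell from 68.0, 89.8 and 105.2 CPM to 11.2, 11.4 and 16.2 CPM (-2.76 ± 0.26, edgeR adjusted p = 9.3e-05), Mtf1, the zinc sensor that acts on metallothionein genes, changed by -0.71 ± 0.17, and Slc30a1, a zinc exporter, by -0.44 ± 0.12. The Mtf1 call ended without fasted replicate 2 (-0.61, edgeR adjusted p = 0.051). The Slc30a1 call ended without fasted replicate 3 (edgeR adjusted p = 0.072) or without fed replicate 1 (0.053), 2 (0.052) or 3 (0.073). The metal response element, read as TGCACNC or TGCGCNC on either strand, lay in the promoter windows of 6 of 7 zinc genes (85.7%) and in 40% of all tested genes, which is common for so short a motif. The 250 bases before the start of Mt2, at chr8:94172368-94172617 on the plus strand of GRCm38.p6, hold 3 matches, in capitals, and are shown because Mt2 had the second highest change of the named genes.
Mt2 upstream: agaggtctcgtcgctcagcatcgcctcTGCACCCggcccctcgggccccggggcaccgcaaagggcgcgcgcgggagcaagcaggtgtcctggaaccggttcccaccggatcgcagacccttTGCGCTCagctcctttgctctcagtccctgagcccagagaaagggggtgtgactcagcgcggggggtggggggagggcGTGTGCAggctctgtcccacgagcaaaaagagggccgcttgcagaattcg

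Clock genes moved although both groups were killed at the same clock time. Of 20 genes, 7 rose (35%) and 3 fell, with a median of 0.40. The period genes went opposite ways. Per1, which glucocorticoids and cyclic AMP also raise, went from 23.9, 6.30 and 10.9 CPM to 48.7, 58.0 and 49.3 CPM (1.92 ± 0.40, edgeR adjusted p = 0.0071; 2.61 without fed replicate 1, the highest fed library, and 1.95 with an adjusted p of 0.085, no longer called, in the pericentral libraries alone without fasted replicate 1), while Per2 fell from 76.6, 86.0 and 119.0 CPM to 21.4, 20.6 and 27.2 CPM (-2.02 ± 0.24, edgeR adjusted p = 0.00029). Usp2, a deubiquitinase of the clock output, rose by 1.05 ± 0.17. Bhlhe40, a repressor, fell by 1.24 on the log2 scale, a call that ended in the pericentral libraries alone (-1.26, edgeR adjusted p = 0.056). Dbp, a clock output factor, did not pass and varied within groups, at 43.4, 10.8 and 5.05 CPM in fed and 83.9, 52.3 and 25.1 CPM in fasted libraries (1.44 ± 0.81, edgeR adjusted p = 0.24), and was called without fed replicate 1 (2.75, edgeR adjusted p = 0.043). The E-box CACGTG, on which the clock factors act, lay in the promoter windows of 5 of 16 clock genes (31.2%), Per1 and Tef among them, and in 11.6% of all tested genes. The 7 clock genes that rose became 3 without fed replicate 2 or 3 and 4 without fasted replicate 2.

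On the p53 and growth arrest list, 7 of 14 genes rose (50%) and 1 fell, with a median of 0.53 that was 0.27 without fasted replicate 1. Cdkn1a, the cyclin-dependent kinase inhibitor p21, was at 0.604, 0.696 and 0.784 CPM in fed and 3.25, 5.66 and 24.0 CPM in fasted libraries (3.98 ± 0.74, edgeR adjusted p = 0.0043), with fasted replicate 3 far above the others and a change of 2.66 without it. Btg1, an antiproliferative factor, went from 26.7, 22.3 and 18.2 CPM to 64.5, 49.2 and 74.9 CPM (1.49 ± 0.17). The GADD45 stress sensors split. Gadd45g rose from 4.41, 2.51 and 6.03 CPM to 54.6, 134.2 and 30.8 CPM (4.10 ± 0.64; 3.33 without fasted replicate 2) and Gadd45b by 1.86 on the log2 scale, while Gadd45a fell from 35.6, 35.0 and 41.1 CPM to 6.90, 2.71 and 2.44 CPM (-3.20 ± 0.38; -3.87 without fasted replicate 1). Without that replicate, 2 members of the list fell. Of 20 cell cycle and DNA replication genes, 2 fell (10%, a share near that of all genes) and 1 rose, with a median of -0.10 that was 0.071 without fasted replicate 1. Ccnd1, cyclin D1, which growth signals raise, fell from 59.8, 44.8 and 52.7 CPM to 15.9, 4.45 and 8.92 CPM (-2.42 ± 0.50, edgeR adjusted p = 0.0075), and Rrm2, a subunit of ribonucleotide reductase, changed by -1.46 ± 0.34. Ccne1, cyclin E1, was the member called higher (1.67 ± 0.55, edgeR adjusted p = 0.048), at or below 1.63 CPM in every pericentral library. This call held in 2 of the 12 fits that left out a library, those without fasted replicate 1, which gave 2 members higher, and without fasted periportal replicate 3. Without fasted replicate 3, 4 members fell.

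Autophagy, by which a fasted cell digests its own contents, was read from a list of autophagy and lysosome genes. Of its 30 genes, 11 were higher (36.7%) and 0 lower, with a median of 0.16. The summed level of the list ran from 4276 to 4553 CPM in fed and from 5307 to 5338 CPM in fasted libraries. Map1lc3b, the LC3 protein of the autophagosome membrane, rose from 71.7, 65.3 and 63.1 CPM to 140.2, 135.3 and 128.7 CPM (1.01 ± 0.10, edgeR adjusted p = 7.2e-05). Gabarapl1, of the same protein family, rose by 1.21, and Wipi1 and Atg2a, which serve membrane growth, by 0.75 and 0.65 on the log2 scale. Bnip3, a receptor for the removal of mitochondria, changed by 0.77 ± 0.13. Fbxo32, the ubiquitin ligase atrogin-1, rose from 0.640, 0.313 and 0.245 CPM to 3.55, 2.89 and 1.66 CPM (2.72 ± 0.41). The count of 11 became 7 without fed replicate 2 or 3.

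Secreted hepatokines changed one by one, with 3 of 21 higher, 2 lower and a median of 0.16 that was -0.080 without fasted replicate 1. Angptl8, a feeding-induced inhibitor of lipoprotein lipase, had the lowest adjusted p of all genes. It stood at 263.8, 282.8 and 275.5 CPM in fed and 8.55, 12.3 and 12.4 CPM in fasted libraries (-4.63 ± 0.22, edgeR adjusted p = 3.7e-07). Its partner Angptl4 moved the other way, as given above. Inhba, an activin subunit, fell from 24.9, 48.2 and 53.7 CPM to 3.19, 4.33 and 4.82 CPM (-3.36 ± 0.32). Fetub was higher by 0.65 ± 0.17, a call that ended without fed replicate 3 (0.54, edgeR adjusted p = 0.083) or fasted replicate 2 (0.64, 0.051). On GRCm38 (mm10), Angptl8 spans chromosome 9 from 21835510 to 21837347.

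Amino acid catabolism and the urea cycle changed in few members. Of 40 genes of amino acid catabolism, 7 rose (17.5%) and 0 fell, with a median of 0.07 that was -0.072 without fasted replicate 1. Tdo2, which opens the ring of tryptophan, went from 894.6, 927.3 and 660.0 CPM to 1228, 1592 and 1475 CPM (0.79 ± 0.16), and Bckdha, of the branched-chain ketoacid dehydrogenase, changed by 0.53 ± 0.11 and Aass, of lysine breakdown, by 0.58 ± 0.13. Sds, serine dehydratase and a periportal marker, stood at 5.44, 10.8 and 6.32 CPM in fed and 112.3, 16.3 and 32.7 CPM in fasted libraries; its change of 2.83 was 1.68 without fasted replicate 1, and its call ended without fed replicate 3 (edgeR adjusted p = 0.053). The 7 that rose became 3 without fed replicate 3, and the count of members that fell became 3 without fasted replicate 1, 2 without fasted periportal replicate 3 or fed periportal replicate 3, and 1 without fed periportal replicate 1. Of 8 urea cycle genes only Arg1, arginase, rose, from 791.8, 884.4 and 903.0 CPM to 2064, 1130 and 1402 CPM with fasted replicate 1 the highest (0.83 ± 0.19, edgeR adjusted p = 0.0076). In the fit without that replicate 1 urea cycle gene was lower.

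Drug metabolism, which marks the pericentral zone, had 5 of 40 genes higher (12.5%) and 2 lower (5%), shares near or under those of all genes. Por, the reductase that feeds electrons to every microsomal P450, rose from 578.4, 613.6 and 567.4 CPM to 1142, 1653 and 1557 CPM (1.31 ± 0.16, edgeR adjusted p = 0.00023). Of the xenobiotic sensors, Nr1i3 (CAR) reached 519.2, 634.6 and 542.0 CPM in fasted libraries from at most 276.5 CPM in fed ones (1.11 ± 0.26). Nr1i2 (PXR) changed by 1.08 ± 0.20. The sensor Ahr was not called, at 56.7, 68.3 and 57.6 CPM in fed and 34.8, 85.1 and 48.0 CPM in fasted libraries. Cyp2b10, the standard target of CAR, fell from 29.5, 33.1 and 30.2 CPM to 16.5, 8.13 and 15.5 CPM (-1.21 ± 0.24, edgeR adjusted p = 0.0050). Cyp1a2 was not called: 791.3, 783.3 and 945.2 CPM in fed and 218.1, 829.9 and 420.3 CPM in fasted libraries (-0.78 ± 0.37, edgeR adjusted p = 0.17), and it was called without fasted replicate 2 (-1.39, edgeR adjusted p = 0.0070). Cyp2c29, a close paralog of other Cyp2c genes and so uncertain, changed by -0.62 ± 0.16, a call that ended without fed replicate 3 (-0.58, edgeR adjusted p = 0.054). The count of members that fell was 4 without fasted replicate 2 and 1 without fed replicate 3.

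The pericentral markers as a list showed no common change, with 2 of 29 higher, 1 lower and a median of -0.11. Without fasted replicate 1 the median was 0.21 and 6 were higher. Glul (0.16 ± 0.81, edgeR adjusted p = 0.91), Oat (-0.11 ± 0.52, 0.91) and Cyp2e1 (0.51 ± 0.60, 0.59) were not called, nor were Lgr5 (0.32 ± 0.39, 0.61) and Axin2 (-0.23 ± 0.44, 0.75), a receptor and a target of the Wnt signal that keeps the zone. In the fit of the pericentral libraries alone Cyp2e1 was called (0.49, edgeR adjusted p = 0.042). The 2 markers called higher were Nr1i3, given above, and Znrf3, also a gene of the Wnt pathway. Znrf3 stood at 9.02, 10.3 and 9.90 CPM in fed and 12.8, 23.5 and 13.9 CPM in fasted libraries. Its call ended without fasted replicate 2 (0.45, edgeR adjusted p = 0.15) or fed replicate 1 (0.73, 0.094), 2 (0.80, 0.083) or 3 (0.79, 0.085). It also ended in the pericentral libraries alone (0.76, 0.0502). Slc1a4, a neutral amino acid transporter, was the marker that fell, from 13.4, 17.95 and 24.0 CPM to 2.42, 4.88 and 5.38 CPM (-2.13 ± 0.39, edgeR adjusted p = 0.0030). The number of higher pericentral markers was 1 without fasted replicate 2 or any 1 fed replicate, and the number lower was 3 without fasted replicate 2 and 2 without fed periportal replicate 3. Of 25 periportal markers, 5 rose (Pck1, Mfsd2a, Arg1, Sds and Etnppl) and 0 fell, with a median of 0.60 that was -0.00050 without fasted replicate 1. That count was 9 without fasted replicate 2 and 3 without fed replicate 3. Mfsd2a, a lipid transporter, went from 71.3, 43.6 and 51.7 CPM to 114.0, 142.9 and 230.6 CPM (1.55 ± 0.30).

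The remaining lists changed little. On the bile acid list of 18 genes, Abcb4, the phospholipid exporter, rose (0.73 ± 0.17) and Slco1a1, an anion importer, was lower, at 71.0 to 131.5 CPM in fed and 8.65, 21.7 and 45.9 CPM in fasted libraries (-1.99 ± 0.56, edgeR adjusted p = 0.031). The Slco1a1 call ended without fed replicate 1 (edgeR adjusted p = 0.064), fed replicate 2 (0.089) or fasted replicate 2 (0.099), without the filter on low counts (0.076) and in the pericentral libraries alone (0.073), and its change was -2.76 without fasted replicate 3. In that list 3 genes were higher without fasted replicate 1 and 2 without fasted periportal replicate 3. Of 24 acute phase genes, 3 rose and 0 fell (median 0.22, and 0.052 without fasted replicate 1): Il6ra, the interleukin-6 receptor (1.29 ± 0.14), Lbp, which binds lipopolysaccharide (1.01 ± 0.15), and Stat3 (0.52 ± 0.12). One acute phase gene was lower without fasted replicate 3, fasted periportal replicate 2 or fed periportal replicate 3. None of 17 Nrf2 antioxidant genes (median 0.23, and 0.48 without fasted replicate 1) or 13 mitochondrially encoded genes (median -0.04, and -0.11 without it) was called by edgeR. Without fasted replicate 1, 1 Nrf2 gene was higher and 1 mitochondrially encoded gene lower, and without fasted replicate 2 or 3, 1 Nrf2 gene was lower. Alb, albumin, did not pass (0.20 ± 0.12, edgeR adjusted p = 0.26). Of the marker lists of other cells, the calls were Fcgr2b, an endothelial gene at or below 4.23 CPM in all 6 libraries (-2.15 ± 0.44), and Spp1, a cholangiocyte gene that hepatocytes can also express (-0.89 ± 0.23). The Spp1 call ended without fasted replicate 1 (-0.73, edgeR adjusted p = 0.055), fasted replicate 2 (-0.82, 0.065) or fed replicate 2 (-0.77, 0.074). Red blood cell genes had a median of 3.60 with none of 5 called.

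Several of the genes with the highest and lowest changes lie outside these pathways. Slc8b1, the mitochondrial sodium-calcium exchanger, rose from 10.3, 7.83 and 5.05 CPM to 109.5, 85.5 and 61.5 CPM (3.46 ± 0.31, edgeR adjusted p = 7.0e-05). Nlrp12, an innate immune regulator, went from 2.45, 1.43 and 0.833 CPM to 16.9, 16.0 and 19.3 CPM (3.44 ± 0.42), and Hdc, which makes histamine from histidine, from 4.41, 2.96 and 2.40 CPM to 22.6, 32.3 and 45.0 CPM (3.34 ± 0.47). Among the lowest, Aacs, which activates acetoacetate for lipid synthesis, fell from 457.7, 537.7 and 537.5 CPM to 17.1, 42.6 and 47.9 CPM (-3.83 ± 0.45). Atp2b2, a plasma membrane calcium pump, changed by -4.59 ± 0.65. Slc2a4, the insulin-responsive glucose transporter GLUT4 best known from muscle and fat, went from 7.82, 10.5 and 27.5 CPM to 0.618, 0.602 and 1.05 CPM (-4.32 ± 0.73; -3.58 without fed replicate 3). Slc34a2, a phosphate transporter, fell from 4.69, 15.9 and 30.7 CPM to 0.155, 0.421 and 0.721 CPM (-5.30 ± 0.97; -5.92 without fasted replicate 3 and -4.58 without fed replicate 3), a call that ended in the pericentral libraries alone without fasted replicate 1 (-4.88, edgeR adjusted p = 0.058). Chrna4, a nicotinic receptor subunit, fell from 19.5, 35.5 and 70.4 CPM to 0.464, 1.51 and 1.55 CPM (-5.17 ± 1.19; -4.56 without fed replicate 3). For these last 3 genes fed replicate 3 was the highest fed library and fed replicate 1 the lowest.

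The response was then set beside that of periportal hepatocytes, measured in 6 other libraries. In periportal cells 2162 genes were called (17.9%), 1014 higher (8.39%) and 1148 lower (9.50%), and without fed periportal replicate 2 that count was 1405. Of the pericentral calls, 1544 were also called in periportal cells in the same direction, which is 59.8% of the pericentral and 71.4% of the periportal calls, and 1 gene was called in opposite directions. The sign was the same in 98.7% of the pericentral calls and in 78.9% of all tested genes. Across the genes called in pericentral cells the log2 changes had a Pearson r of 0.916, and across all tested genes of 0.664, as a description over genes that are not independent. The median size of the pericentral calls was 0.74 in pericentral and 0.59 in periportal cells. Of the pericentral calls 75% were larger in pericentral cells, and of the periportal calls 58.4% were larger in periportal cells; each share favours the zone that chose the genes.

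No gene passed the edgeR test of the difference between the responses (0%), with 465 genes at an unadjusted p under 0.05 (3.85% of those tested), while DESeq2 called 11. The smallest edgeR adjusted p was 0.0878, for Cabyr, a gene at or below 3.71 CPM in every library. Without fasted pericentral replicate 1, edgeR called 2 genes. The model treats pericentral and periportal libraries as independent, and whether those of one number share a mouse is not stated. Tkfc, among the 11 of DESeq2, was similar in fed cells of the zones and lower in fasted pericentral libraries (157.0, 242.2 and 229.0 CPM) than in fasted periportal ones (469.5, 549.3 and 565.4 CPM), a difference in log2 change of -1.28 ± 0.28 in edgeR (adjusted p = 0.997). DESeq2 gave -1.30 for it, with an adjusted p of 0.0158. Pck1 changed by 5.14 in pericentral and 3.39 in periportal cells, a difference of 1.76 with an edgeR adjusted p near 1. Cyp2b10 had -1.21 against 0.05 and Slco1a1 -1.99 against 0.01, and Cyp1a2 had -0.78 against -1.97. None of these 4 differences passed in edgeR. For Hspa5 (-1.68 and -1.91), Klf9 (2.15 and 2.39), Cpt1a (1.19 and 1.12) and Mt2 (5.53 and 5.35) the changes in the zones stood closer together. Fasn had -5.12 against -4.26, a difference of -0.86 ± 0.61 that did not pass either (edgeR adjusted p = 0.997). A difference that did not pass is not shown to be absent.

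**Figure D5:**
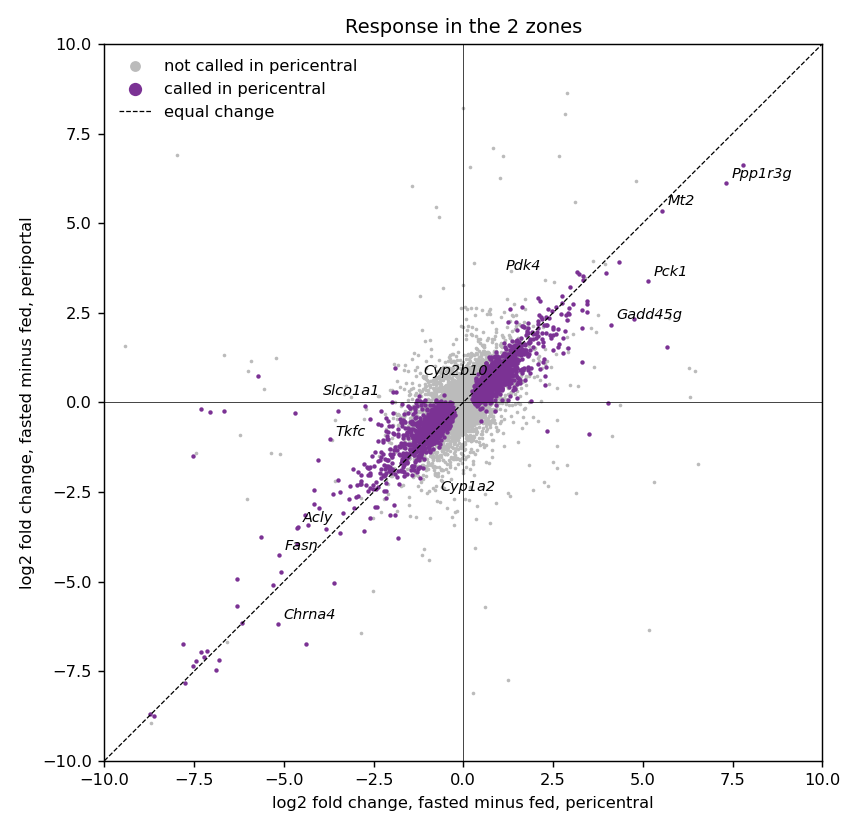
Fitted log2 change from fed to fasted of each tested gene in pericentral (horizontal) and periportal (vertical) hepatocytes, with the 2582 genes called in pericentral cells in purple and the line of equal change dashed. The purple points follow the line (Pearson r 0.916 over these genes); Pck1 lies below it at 5.14 and 3.39, and Cyp2b10 and Slco1a1 lie near 0 on the periportal axis.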

How the data were processed

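RNA of isolated hepatocytes was made into libraries with the NEBNext Ultra kit, which keeps no strand information, so reads of genes that overlap on opposite strands cannot be told apart. The authors deposited estimated counts per Ensembl gene, which need not be whole; per the submitters' processing notes they used kallisto 0.46.0 and the build mm10. The transcript annotation and the summing to genes are not given in the sources used here. Between 28.0% and 32.8% of values per library were not whole; all were rounded, which moved a library's total by at most 120.8. Totals ran from 16245846 to 27449412 per library. Symbols and coordinates came from GENCODE M21 (27645 of 28030 identifiers). Genes that share reads with close paralogs are uncertain. No replicate pair agreed within sampling noise.

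After edgeR's filterByExpr and TMM scaling, a quasi-likelihood model with 4 group means was fitted to all 12 libraries (edgeR 4.0.16, R 4.3.3, robust, 8 residual degrees of freedom), and p-values were adjusted by the Benjamini-Hochberg method over 12086 genes. Each SE was obtained as the size of the unshrunk log2 change over √F. CPM values use TMM-scaled library sizes. Since separate animals are not documented per library, p-values reflect only how these libraries vary. In simulated data, 16.4% of genes changed 1.5-fold, 73.1% of those changed 2-fold and 90.9% of those changed 4-fold were recovered for fasting in pericentral cells (11805 genes in that step). There, 7 unchanged genes were called. Only a small set of genes was changed, and no simulated library stood apart as fasted replicate 1 does. The rates therefore need not hold for the real libraries. Replicate numbers did not pair fed with fasted libraries (correlations of 0.046, 0.009 and -0.003; the check across zones is given with the alternatives).

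Named genes were the 12 highest and 12 lowest changes among calls averaging 5 CPM or more whose groups did not overlap, leaving out predicted models and pseudogenes, up to 3 called genes per direction of each of 36 lists, and fixed anchor genes; further list members were added after their values were seen. The genes studied and the lists were chosen with earlier results of these data known. Alternatives were DESeq2 1.42.0, RLE scaling, no filter, pericentral libraries only, a replicate block and each library left out; pericentral libraries without fasted replicate 1 and a block across zones were added after seeing the data. Some members of the lists are counted and not reported here by name.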

Additional observations from a re-analysis of the deposited data

How the results depend on the processing

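The 2582 calls became 2960 with DESeq2, 2579 with RLE scaling, 2169 without the filter on low counts and 2698 in a fit of the 6 pericentral libraries alone, with 2579, 2552, 2140 and 2302 of the original calls kept in the same direction. With the pericentral libraries alone and without fasted pericentral replicate 1, 3253 genes were called (2262 kept). With the replicate number as a block there were 2696 calls (2429 kept), and the numbers did not pair fed with fasted pericentral libraries. Leaving out 1 library gave 1593 to 2618 calls, 788 to 1301 higher and 805 to 1334 lower. The greater number of higher genes (1345 against 1237) was not stable: 9 of the 12 fits that left out 1 library had more lower than higher genes, as did the fits of pericentral libraries (1342 and 1356, then 1615 and 1638). Leaving out 1 library gave 1405 to 2414 periportal calls. The difference between zones had 11 calls with DESeq2, 1 without the filter and 0 to 2 with 1 library left out. Pericentral and periportal libraries of one number deviated together in some pairs and not in others (correlations of 0.269, 0.024 and 0.151 in fed and 0.193, -0.115 and 0.094 in fasted pairs), so the numbers were not taken as pairs. With that number as a replicate block across zones, edgeR called 0 genes (625 at an unadjusted p under 0.05, smallest adjusted p 0.178).

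Signs reversed, all in genes that were not called. Lgr5 ranged from -0.38 (without fasted pericentral replicate 2) to 0.60 with 1 library left out, Axin2 from -0.56 to 0.061 (without fasted pericentral replicate 1; 0.068 in pericentral libraries without it), Asns from -0.41 to 0.017 (without fasted pericentral replicate 2), and Oat from -0.49 to 0.31 (without fasted pericentral replicate 1, alone or in pericentral libraries only). Glul ranged from -0.54 (without fasted pericentral replicate 2) to 0.69, with -0.0066 without fed pericentral replicate 1 and -0.20 with the replicate block. The cause was not tested. Genes below 1 CPM rest on few counts and their changes carry wide errors.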

Other observations

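Gene families grouped by symbol were looked at after their values had been seen, so the counts below describe these libraries and no more; 11.1% of all tested genes rose and 10.2% fell. Of 11 tested Kruppel-like factors, 7 rose and 1 fell in fasted pericentral cells: Klf11 rose by 1.76 and Klf15, a regulator of amino acid catabolism, by 1.29 on the log2 scale, and Klf10 fell by 1.99. Of 20 nuclear receptor genes 8 rose and 0 fell, with Nr2c2 higher by 1.62 and Nr6a1 by 1.13. Of 48 F-box proteins, the substrate adaptors of ubiquitin ligases, 10 rose and 0 fell. Fbxo31 went from 25.3, 26.2 and 24.6 CPM to 103.1, 115.6 and 105.2 CPM and Fbxo21 from 19.7, 17.99 and 13.6 CPM to 115.5, 112.5 and 59.7 CPM.

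Families of protein synthesis and folding differed. Of 20 aminoacyl-tRNA synthetases 9 fell, 0 rose and 11 were not called, with Wars lowest of the 9 (-1.22), of 27 nucleolar and ribosome assembly genes 11 fell and 2 rose, of 17 translocon and signal recognition genes 7 fell and 0 rose, and of 10 Hspa chaperones 5 fell and 0 rose. Of 11 tubulins 5 fell and 0 rose, and Tuba1c went from 265.9, 281.6 and 332.8 CPM to 49.1, 54.9 and 40.5 CPM (-2.61 on the log2 scale). Of 77 cytosolic ribosomal protein genes 7 rose and 1 fell, with a median of 0.34, and without fasted pericentral replicate 1 the 7 became 0. Of 43 proteasome subunits 1 rose and 1 fell, and without that replicate 4 rose.

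Rcan1, an inhibitor of calcineurin, had one of the lowest adjusted p-values of all genes. It fell from 73.9, 74.3 and 89.8 CPM to 10.04, 14.4 and 13.4 CPM (-2.65 ± 0.14, edgeR adjusted p = 5.6e-07). Leap2, a secreted antagonist of the ghrelin receptor, fell from 43.0, 62.1 and 57.2 CPM to 16.2, 16.1 and 17.3 CPM (-1.71 ± 0.21, edgeR adjusted p = 0.00024). Both genes were named after their values had been seen.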
